A study of Mus musculus with 4 samples.

Results

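The MYC, MAX and MXD network is described here by 10 mouse genes chosen by name, Myc, Mycn, Mycl, Max, Mxd1, Mxd3, Mxd4, Mxi1, Mnt and Mlx, out of 39179 gene identifiers counted. All 10 matched an identifier by symbol, and 9 passed the filter on low counts. The exception was Mycn.

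Messenger RNA was counted in tumour-associated macrophages (TAMs), sorted as CD45+, CD11b+, GR1- and F4/80+ cells from tumours under the skin of FVB mice. The MycCaP-BMP4 group came from tumours of a MycCaP line made to overexpress BMP4, a bone morphogenetic protein that cells secrete, and the MycCaP group from tumours of the parent line. MycCaP is a mouse prostate cancer line whose human MYC transgene, under an androgen-responsive probasin promoter, is carried by the tumour cells of both groups. Each group had 2 libraries, and no age, sex or number of animals is given in the sources used here, nor how BMP4 was introduced into the line. The comparison asks what BMP4 from the tumour cells does to the macrophages beside them.

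MYC, MYCN and MYCL are transcription factors that bind DNA only as dimers with MAX, at the sequence CACGTG called an E-box, and switch on genes of ribosome building, metabolism and growth. MXD1, MXI1, MXD3, MXD4 and MNT compete for MAX at the same sites and recruit the SIN3 and histone deacetylase corepressors, so that the balance between the sides sets the output. MLX is a parallel partner that pairs with MondoA and ChREBP, sensors of sugar, and with some of the MXD and MNT proteins. In the myeloid lineage MXD1 is known to accumulate as cells leave the cycle and mature, and MYCL is known from dendritic cells.

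Because the network acts through the E-box, the promoters of its own genes were searched for CACGTG, which reads the same on both strands. The windows held 250 bases before and 50 after the annotated start, from RefSeq on GRCm38.p6, and 9 of the 10 genes matched an entry (Myc did not). Of these 9, Max, Mxd4, Mnt and Mlx held a match, 4 genes, while 8.09% of the 27025 genes with a promoter entry did. The matches are shown since they are the network's own binding letters in its own genes. They are written 5′ to 3′ on the gene's strand with 20 bases to each side and the E-box in capitals.
Max: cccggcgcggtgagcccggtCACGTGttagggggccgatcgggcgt
Mxd4: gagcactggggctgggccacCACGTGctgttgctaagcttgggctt
Mnt: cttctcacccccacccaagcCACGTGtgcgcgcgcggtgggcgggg
Mlx: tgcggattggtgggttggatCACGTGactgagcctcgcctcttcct

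The Max window lay at chr12:76962226-76962271 on the minus strand, with the E-box starting 3 bases before the transcription start and running across it. The Mxd4 window lay at chr5:34187904-34187949 on the minus strand, with the E-box starting 219 bases before the transcription start. The Mnt window lay at chr11:74830781-74830826 on the plus strand, with the E-box starting 123 bases before the transcription start. For Mlx the window lay at chr11:101087230-101087275 on the plus strand, with the E-box starting 40 bases before the transcription start. Mycn, Mycl, Mxd1, Mxd3 and all 3 annotated starts of Mxi1 had no CACGTG in these windows. A match is a string of letters and not a measured binding site.

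The libraries held 23058263 to 24967143 counts in genes, and 3 counts, used as the detection floor, equalled 0.120 to 0.130 counts per 1000000 (CPM). That floor covers counting error only. CPM values below were scaled with TMM factors, and values are given for replicate 1 and then replicate 2 of each group. Bmp4 had 511 and 182 CPM in MycCaP-BMP4 TAMs, against 0.175 and 0.0422 CPM in MycCaP TAMs. The labels name BMP4 for the tumour line, not for the sorted cells. Which cells the Bmp4 RNA in these libraries came from was not tested. Of the genes of the sort markers, Ptprc (CD45), Itgam (CD11b) and Adgre1 (F4/80) were detected in each library, and the GR1 gene Ly6g was at 0 throughout. Levels of Ptprc, Itgam and Adgre1 were lower without overlap in MycCaP-BMP4 TAMs. MycCaP-BMP4 replicates 1 and 2 held 18.9% and 56.1% of the MycCaP mean of Ptprc. For Itgam they held 16.0% and 78.0%, and for Adgre1 16.4% and 71.6%. The GR1 antibody also binds Ly6C, and the Ly6C genes were detected in each library: Ly6c1 had 49.6 and 22.6 CPM in MycCaP-BMP4 TAMs, against 3.67 and 6.24 CPM in MycCaP TAMs, and Ly6c2 had 1.77 and 1.62 CPM, against 4.77 and 4.39 CPM in MycCaP TAMs. F4/80 appears in the titles of the MycCaP-BMP4 samples only, so the gate may not have been the same. Levels of cell type markers differed between the libraries. Over 15 pan-macrophage genes, MycCaP-BMP4 replicates 1 and 2 held a median of 19.5% and 74.2% of the MycCaP mean. Their summed level was 7139 and 27173 CPM in the MycCaP-BMP4 libraries, against 36792 and 32537 CPM in the MycCaP libraries, and none of the 15 was at 0 in any library. The 13 tumour epithelium genes summed to 793 and 314 CPM in the MycCaP-BMP4 libraries, against 113 and 146 CPM in the MycCaP libraries. Of these 13, Esrp1 had no count in any library and Epcam stayed under 1 CPM, while the tight junction gene Cldn3 had 359 and 126 CPM in the MycCaP-BMP4 libraries, against 25.8 and 27.6 CPM in the MycCaP libraries. In such bulk samples fewer cells of a type and less RNA per cell cannot be told apart.

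Myc was the member with the largest shift upward, and Mxd1, Mxi1 and Mycl were those with the largest shifts downward. Myc, Mxd4 and Mnt, 3 members, had both MycCaP-BMP4 values above both MycCaP values, and 5 had both below, namely Mycl, Max, Mxd1, Mxd3 and Mxi1. Over all 14075 genes tested the groups did not overlap for 28.9% that were higher and 29.7% that were lower. The median log2 fold change (MycCaP-BMP4 over MycCaP) of the 9 tested members was -0.30, beside -0.03 for all genes. No member passed the edgeR quasi-likelihood test at an adjusted p of 0.05, nor did any of the 14075 genes (0%). At an unadjusted p under 0.05 there were 2 members, Myc (higher) and Mycl (lower), where 19.0% of all genes reached that level. DESeq2 called 1 member, Myc, and 9.84% of all genes, and limma-voom called none.

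**Figure D1:**
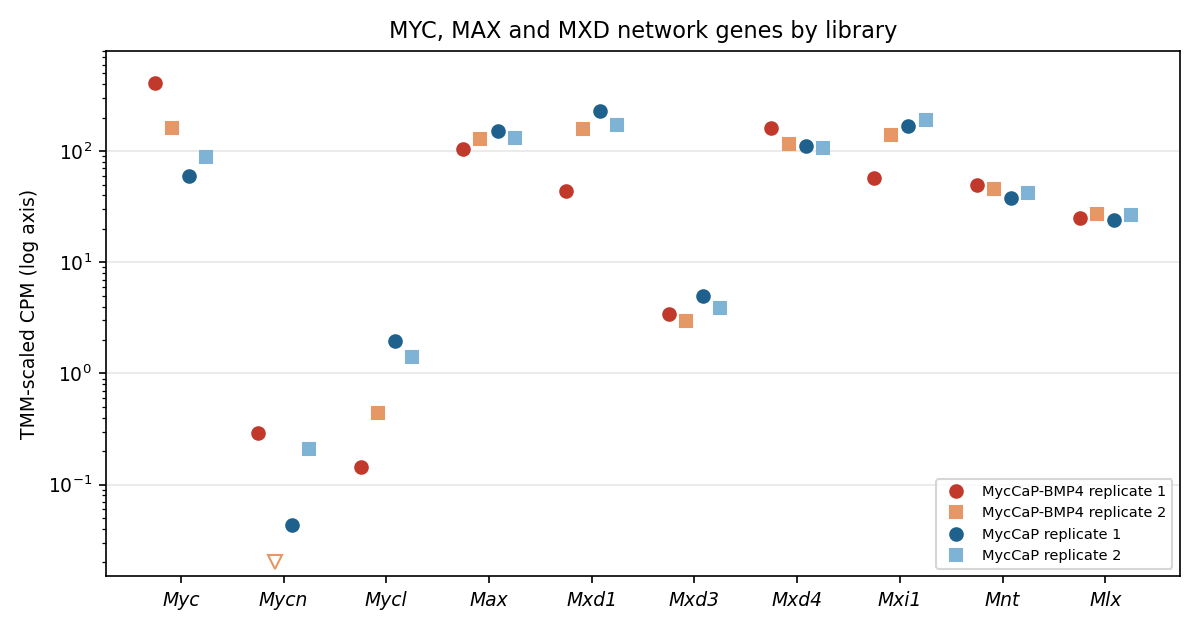
TMM-scaled CPM on a log axis for the 10 network genes (columns) in each library (circles for replicate 1, squares for replicate 2; MycCaP-BMP4 in red and orange, MycCaP in blue). The open triangle marks the library in which Mycn had no count. Myc is the gene that stands highest in MycCaP-BMP4 replicate 1, at 408 CPM, and Mxd1 and Mxi1 have their lowest values in that library.

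The MYC genes come first. Myc (ENSMUSG00000022346, chromosome 15, 61985391 to 61990374 on GRCm38, protein-coding) had 408 and 163 CPM in MycCaP-BMP4 TAMs, against 59.4 and 87.9 CPM in MycCaP TAMs. The groups did not overlap, and MycCaP-BMP4 replicate 1 was 2.50 times replicate 2. The means were 285 ± 173 CPM in MycCaP-BMP4 TAMs and 73.6 ± 20.1 CPM in MycCaP TAMs (SD, n = 2 each). The log2 fold change was 1.95 ± 0.52 (SE), with a 95% interval of 0.68 to 3.23, and edgeR gave an adjusted p of 0.157. DESeq2 gave Myc a log2 fold change of 1.98 with an adjusted p of 0.00334. Over all the alternatives tried the fold change stayed positive, from 1.14 to 3.93, and the adjusted p ran from 0.00015 to 0.89. Without MycCaP-BMP4 replicate 1 it was 1.14, and without replicate 2 it was 2.50.

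The tumour epithelium genes stood in the same order of libraries as Myc. MycCaP-BMP4 replicates 1 and 2 differed from the MycCaP mean by a median log2 of 2.61 and 1.51 over these genes, where Myc was at 2.47 and 1.15. Of the 8 tested epithelial genes 6 were higher without overlap and 1 was lower, where 28.9% and 29.7% of all genes were. The part of tumour cell RNA in the Myc difference was not tested. Whether reads of the human MYC transgene aligned to mouse Myc is not given in the sources used here, and gene counts cannot tell them apart.

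Mycl (ENSMUSG00000028654, chromosome 4, 122995652 to 123002485) was a low-level gene. It had 0.145 and 0.439 CPM (4 and 10 counts) in MycCaP-BMP4 TAMs, against 1.97 and 1.39 CPM (45 and 33 counts) in MycCaP TAMs. Both MycCaP-BMP4 libraries were below both MycCaP libraries, and replicate 1 lay near the floor of 3 counts. The log2 fold change was -2.53 ± 0.82 (SE), with an edgeR adjusted p of 0.203. Mycl passed the filter through the MycCaP libraries. The 7 dendritic cell genes summed to 13.6 and 37.0 CPM in MycCaP-BMP4 TAMs, against 54.5 and 61.6 CPM in MycCaP TAMs. Of these, 6 lay lower without overlap, where 29.7% of all genes did. Over these genes MycCaP-BMP4 replicates 1 and 2 differed from the MycCaP mean by a median log2 of -2.19 and -0.54, beside -3.54 and -1.94 for Mycl. The list medians were computed with a prior count of 2 and the Mycl values without, which widens differences at low counts. The part of dendritic cells in the Mycl difference was not tested.

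Mycn (ENSMUSG00000037169, chromosome 12, 12936093 to 12941914), the MYC gene of neural and embryonic tissue, had 8 and 0 counts in MycCaP-BMP4 TAMs, against 1 and 5 counts in MycCaP TAMs. These values lay around the floor in both groups, and a count of 0 allows up to 0.130 CPM before scaling. No fold change is given.

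Max (ENSMUSG00000059436, chromosome 12, 76937269 to 76962201), the obligate partner of the MYC and MXD proteins, was among the steadier members. It had 105 and 127 CPM in MycCaP-BMP4 TAMs, against 153 and 132 CPM in MycCaP TAMs. The MycCaP-BMP4 values were both below the MycCaP values, although replicate 2 was close to the lower of them. Its log2 fold change was -0.30 ± 0.27 (SE), with a 95% interval of -0.97 to 0.38 and an edgeR adjusted p of 0.575.

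Among the repressors, Mxd1 (ENSMUSG00000001156, chromosome 6, 86647042 to 86669161) had 44.0 and 157 CPM in MycCaP-BMP4 TAMs, against 231 and 174 CPM in MycCaP TAMs. Replicate 1 alone was far below the other 3 libraries, at 0.280 times replicate 2. The log2 fold change was -1.01 ± 0.61 (SE) with an edgeR adjusted p of 0.408, and without MycCaP-BMP4 replicate 1 it was -0.37.

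Mxi1 (ENSMUSG00000025025, chromosome 19, 53310518 to 53375810), also known as MXD2, was also lowest in MycCaP-BMP4 replicate 1, with 57.5 and 141 CPM in MycCaP-BMP4 TAMs, against 167 and 189 CPM in MycCaP TAMs. Its log2 fold change was -0.85 ± 0.46 (SE), adjusted p 0.368 by edgeR, and without MycCaP-BMP4 replicate 1 it was -0.34. Relative to the MycCaP mean, MycCaP-BMP4 replicates 1 and 2 held 21.8% and 77.8% of Mxd1 and 32.3% and 79.1% of Mxi1. The pan-macrophage median was at 19.5% and 74.2% in the same libraries. The part of lower macrophage marker levels in both differences was not tested.

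Mxd4 (ENSMUSG00000037235, chromosome 5, 34173883 to 34187720), a repressor of differentiating cells, went the other way from Mxd1 and Mxi1. It had 163 and 115 CPM in MycCaP-BMP4 TAMs, against 111 and 108 CPM in MycCaP TAMs, so that replicate 1 was high and replicate 2 lay just above the MycCaP pair. On the log2 scale the fold change was 0.35 ± 0.29 (SE), with an edgeR adjusted p of 0.537, and it was 0.08 without MycCaP-BMP4 replicate 1.

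Mnt (ENSMUSG00000000282, chromosome 11, 74830920 to 74845725), a broadly expressed repressor that sets a brake on MYC, had 49.9 and 45.3 CPM in MycCaP-BMP4 TAMs, against 38.3 and 41.9 CPM in MycCaP TAMs. The groups were close without overlapping. A log2 fold change of 0.25 ± 0.24 (SE) had an edgeR adjusted p of 0.589 and a 95% interval of -0.34 to 0.83.

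Mxd3 (ENSMUSG00000021485, chromosome 13, 55325168 to 55329823), the MXD gene of dividing cells, was low, with 3.40 and 2.99 CPM in MycCaP-BMP4 TAMs, against 4.94 and 3.88 CPM in MycCaP TAMs. Both MycCaP-BMP4 libraries lay below, and the log2 fold change was -0.46 ± 0.47 (SE), adjusted p 0.608 by edgeR. Of 13 cell division genes 10 lay lower without overlap and none higher, where 29.7% and 28.9% of all genes did. Their median log2 differences were -0.54 and -0.44 in MycCaP-BMP4 replicates 1 and 2, beside -0.37 and -0.56 for Mxd3. Mxd3 shares 105 exonic bases with Prelid1 on the opposite strand, and the strand setting of the counting is not given.

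Mlx (ENSMUSG00000017801, chromosome 11, 101087277 to 101092207) was the steadiest member, with 25.1 and 27.0 CPM in MycCaP-BMP4 TAMs, against 24.0 and 26.4 CPM in MycCaP TAMs. The groups overlapped. The log2 fold change was 0.05 ± 0.25 (SE), with an edgeR adjusted p of 0.928 and a 95% interval of -0.58 to 0.68. Its neighbour Psmc3ip, on the opposite strand, overlaps 385 of its exonic bases, and reads there were assigned by a rule that is not stated.

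**Figure D2:**
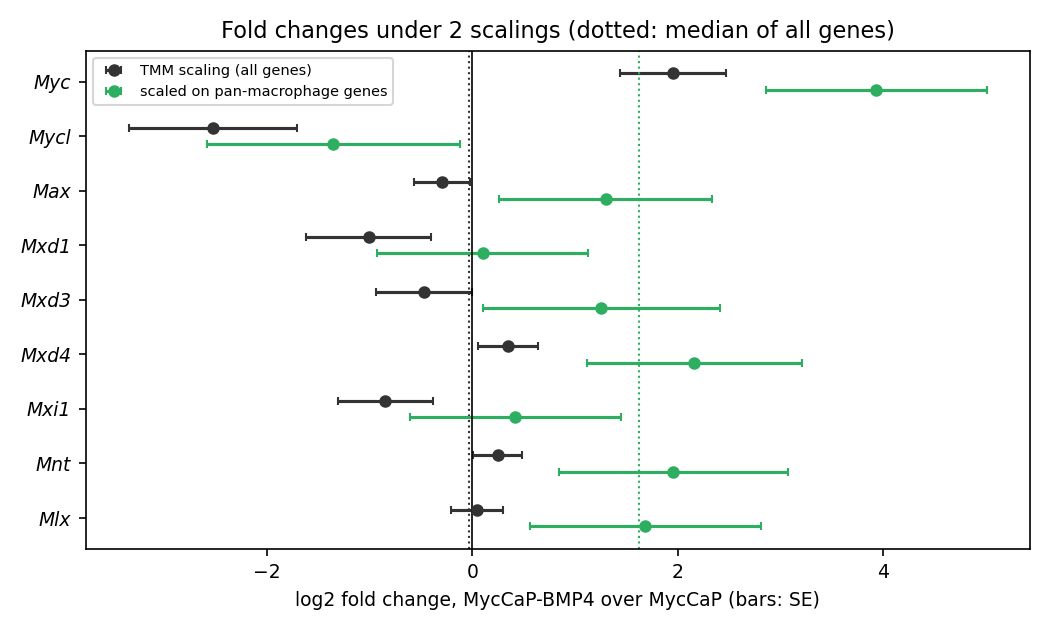
Log2 fold change of the 9 tested members, MycCaP-BMP4 over MycCaP, with SE bars, under TMM scaling (black) and with libraries scaled on the 15 pan-macrophage genes (green). Dotted lines mark the median of all genes, -0.03 and 1.62. Myc lies to the right of the median and Mycl, Mxd1 and Mxi1 to the left of it under both scalings.

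The sign of several members depended on the scaling. When the libraries were scaled on the pan-macrophage genes, all genes had a median log2 fold change of 1.62 in place of -0.03, and Max, Mxd1, Mxd3 and Mxi1 turned positive, at 1.30, 0.10, 1.26 and 0.42. Measured from the median of all genes, the members kept their side. A change of scaling moves all genes in a similar way, so this was nearly fixed in advance. It does not test the part of macrophage content. Myc stood 2.31 above that median under the macrophage scaling and 1.98 above it under TMM scaling. Mxd1 stood at -1.52 and -0.98, Mxi1 at -1.20 and -0.82, and Mycl at -2.98 and -2.50, the macrophage scaling given first. Max stood at -0.33 and -0.27, Mxd3 at -0.37 and -0.44, and Mlx at 0.06 and 0.08. The counts of non-overlapping members became 5 higher and 1 lower, where 68.2% of all genes were higher and 4.13% lower. Among the members Myc alone passed under that scaling, with an edgeR adjusted p of 0.0122. Of all 14075 genes 1089 passed there, 1066 of them higher.

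Levels of different genes were compared as CPM per kilobase of exon, and the place of Myc in the order differed between the groups. In MycCaP-BMP4 TAMs Myc was first, at 105 ± 63.7 CPM per kilobase (SD, n = 2), and Max was next at 32.3 ± 4.37, with no overlap between them. Mxd4, Mxi1, Mxd1 and Mlx followed between 16.4 and 13.0 and overlapped one another in that order. Mnt was at 10.3, Mxd3 at 1.35, and Mycl and Mycn, which overlapped, at 0.0723 and 0.0439. In MycCaP TAMs Max was first at 39.7 ± 4.15. Mxd1, Mxi1 and Myc came next, with levels of 28.6 for Mxd1, 27.1 for Myc and 26.1 for Mxi1 whose ranges overlapped. Mxd4 and Mlx overlapped at 12.9 and 12.6, and Mnt at 8.67, Mxd3 at 1.86, Mycl at 0.416 and Mycn at 0.0386 were each separate from their neighbours.

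Shares within the network do not depend on how libraries are scaled. Of the counts per exonic length of the 10 genes, Myc took 63.0% and 34.0% in MycCaP-BMP4 TAMs, against 13.9% and 20.4% in MycCaP TAMs. Mxd1 took 2.61% and 12.6% in MycCaP-BMP4 TAMs, against 20.7% and 15.5% in MycCaP TAMs. Mxd4 held a nearly constant share, at 8.08% and 7.71% in MycCaP-BMP4 TAMs, against 8.27% and 8.03% in MycCaP TAMs. All MXD and MNT genes together took 19.4% and 38.3% in MycCaP-BMP4 TAMs, against 51.1% and 47.8% in MycCaP TAMs. The ratio of the 3 MYC genes to the MXD and MNT genes per length was 3.26 and 0.889 in MycCaP-BMP4 TAMs, against 0.278 and 0.433 in MycCaP TAMs. The ratio of Myc counts to Max counts was 3.88 and 1.28 in MycCaP-BMP4 TAMs, against 0.388 and 0.665 in MycCaP TAMs. For both ratios the groups did not overlap, and MycCaP-BMP4 replicate 1 was far above replicate 2. With 2 libraries a group an exact two-sided permutation test cannot give a p below 0.333, so none was run on these ratios.

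**Figure D3:**
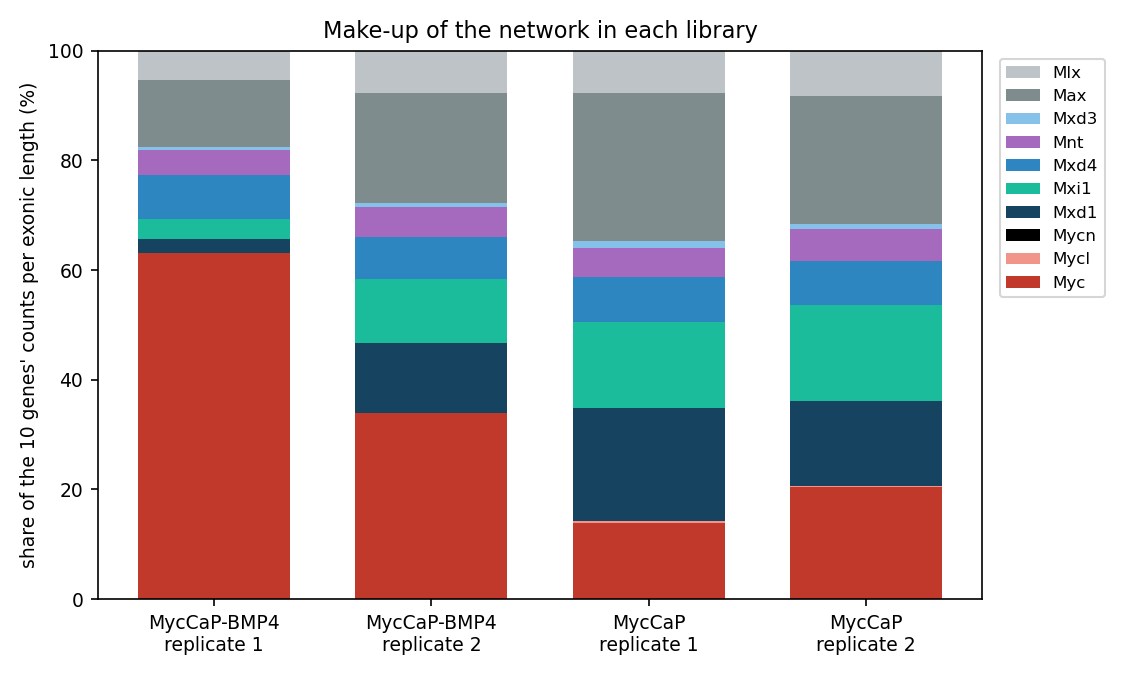
Share of each gene in the summed counts per exonic length of the 10 network genes, in percent, in the 4 libraries, with the MycCaP-BMP4 libraries to the left. Myc (red, bottom) takes 63.0% and 34.0% in the MycCaP-BMP4 libraries, against 13.9% and 20.4% in the MycCaP libraries.

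The difference of each MycCaP-BMP4 library from the MycCaP mean shows where the replicates part. Replicate 1 and replicate 2 were at 2.47 and 1.15 for Myc, at -2.20 and -0.36 for Mxd1 and at -1.63 and -0.34 for Mxi1 on the log2 scale. The pan-macrophage list had medians of -2.35 and -0.43, and the genes of T and NK cells had -2.88 and -2.34. Mnt, Mlx, Max and Mxd3 differed less between the replicates. Fitted without MycCaP-BMP4 replicate 1, which stands apart, these 4 genes had log2 fold changes of 0.17, 0.10, -0.17 and -0.56 in that order, and Mycl had -1.92.

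**Figure D4:**
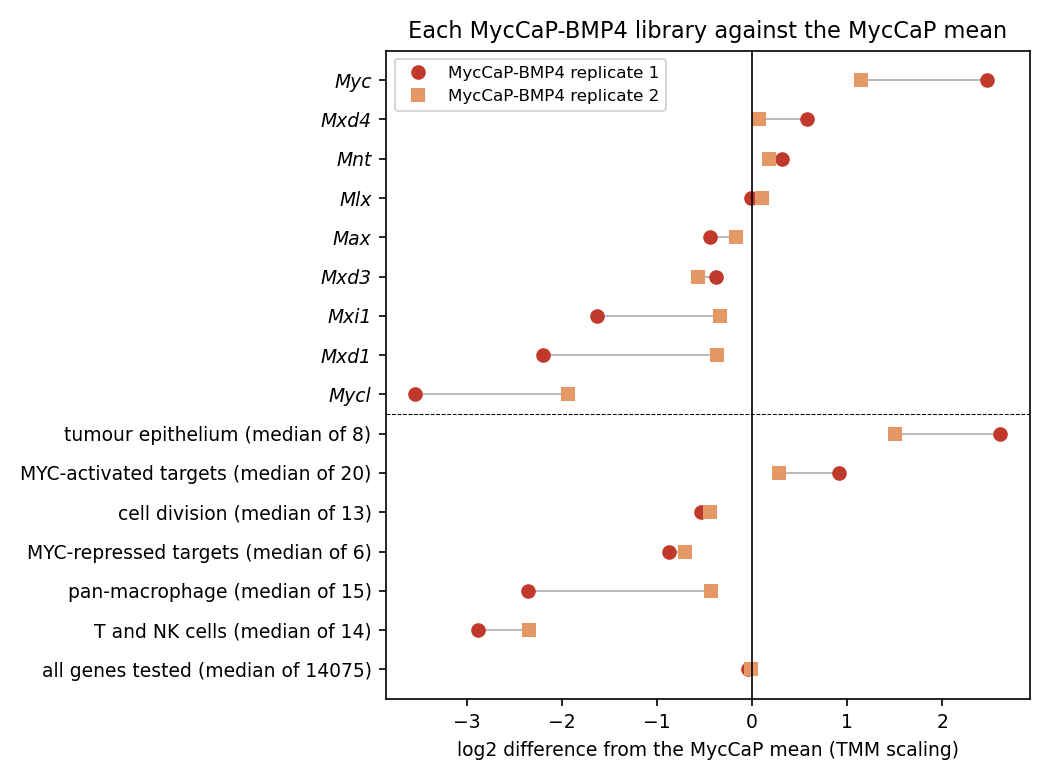
Log2 difference of each MycCaP-BMP4 library (red circles, replicate 1; orange squares, replicate 2) from the MycCaP mean, for the 9 tested members above the dashed line and for medians of gene lists below it. Myc lies near the tumour epithelium median and Mxd1 near the pan-macrophage median in both libraries. List medians were computed with a prior count of 2 and members without, so low-count Mycl is not on the same scale as the lists.

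Of the wider network, 7 partner genes were tested, and their median log2 fold change was 0.11. Of these, 1 was higher and 2 were lower without overlap, where 28.9% and 29.7% of all genes were. Mlxip, which encodes MondoA, had 73.9 and 73.7 CPM in MycCaP-BMP4 TAMs, against 42.1 and 49.3 CPM in MycCaP TAMs. The MycCaP-BMP4 replicates were alike, and both lay above, with a log2 fold change of 0.69 ± 0.24 (SE) and an edgeR adjusted p of 0.221. Mga, which encodes a MAX partner that represses germline genes, had 9.62 and 34.4 CPM in MycCaP-BMP4 TAMs, against 35.5 and 41.9 CPM in MycCaP TAMs, low in replicate 1 alone. Bmyc, a relative of Myc with a similar start of the coding region, had 9.52 and 5.18 CPM, against 4.28 and 5.48 CPM in MycCaP TAMs, and the groups overlapped.

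Coactivators that MYC recruits were higher without overlap in 5 of 8 cases and lower in none, with a median of 0.24. For comparison with this list and those below, 28.9% of all genes were higher and 29.7% lower without overlap. Kat2a, a histone acetyltransferase gene, had 97.4 and 60.1 CPM in MycCaP-BMP4 TAMs, against 42.4 and 46.8 CPM in MycCaP TAMs. Trrap, the scaffold gene of the same complexes, overlapped between groups. The 11 genes of the SIN3 and NCOR corepressors had a median of 0.09, with 5 higher and 4 lower. Rbbp7, a histone-binding subunit, had 924 and 454 CPM in MycCaP-BMP4 TAMs, against 320 and 293 CPM in MycCaP TAMs, whereas Sap30, a SIN3 subunit, had 40.3 and 36.7 CPM, against 73.7 and 54.1 CPM in MycCaP TAMs. Of 11 genes of MYC protein turnover 3 were higher and 2 lower, with a median of 0.16. Usp36, a nucleolar deubiquitinase that stabilises MYC in human cells, had 118 and 73.1 CPM in MycCaP-BMP4 TAMs, against 42.2 and 35.1 CPM in MycCaP TAMs. Fbxw7, the ubiquitin ligase subunit that marks MYC for decay, had 25.4 and 37.3 CPM, against 25.4 and 22.4 CPM in MycCaP TAMs. None of the genes in these 4 lists passed the edgeR test over all genes. The 4 medians are small and moved by over 1.5 times with single libraries left out, over ranges of 0.02 to 0.41 for the partners, 0.13 to 0.42 for the coactivators, 0.02 to 0.18 for the corepressors and -0.057 (without MycCaP replicate 1) to 0.35 (without MycCaP replicate 2) for turnover.

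Genes that MYC is known to switch on were mostly higher. Of 20 tested, 13 were higher without overlap, 1 was lower and 6 overlapped, with a median log2 fold change of 0.63 beside -0.03 for all genes. At an unadjusted p under 0.05 there were 7 higher, where 12.3% of all genes were, and 1 lower, where 6.76% were, and none passed after adjustment. Nop56, a nucleolar protein gene, had 353 and 171 CPM in MycCaP-BMP4 TAMs, against 93.3 and 83.0 CPM in MycCaP TAMs, a log2 fold change of 1.57 ± 0.42 (SE). Polr1b, a subunit gene of RNA polymerase I, had 52.5 and 26.4 CPM in MycCaP-BMP4 TAMs, against 8.96 and 14.1 CPM in MycCaP TAMs. Gar1, which acts in RNA modification, had 79.0 and 41.4 CPM, against 23.5 and 22.8 CPM in MycCaP TAMs. In each of these 3 genes replicate 1 was the highest library, as for Myc.

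Other MYC targets were not higher without overlap, although Ldha, Ncl and Cdk4 also had their highest value in MycCaP-BMP4 replicate 1. Ldha, a lactate dehydrogenase gene, had 1879 and 1341 CPM in MycCaP-BMP4 TAMs, against 1593 and 1523 CPM in MycCaP TAMs, and Ncl and Cdk4 overlapped too. Ccnd2, a cyclin gene, had 6.66 and 17.9 CPM in MycCaP-BMP4 TAMs, against 67.6 and 60.9 CPM in MycCaP TAMs, with a log2 fold change of -2.39 ± 0.50 (SE) and an edgeR adjusted p of 0.142. The list's median was 0.91 and 0.28 in MycCaP-BMP4 replicates 1 and 2, the order of the tumour epithelium list, whose part was not tested. The median log2 fold change was 0.28 without MycCaP-BMP4 replicate 1, and scaled on the macrophage genes it was 2.47, where all genes had 1.62.

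Genes that MYC is known to hold down were mostly lower, with 5 of 6 lower, 1 overlapping and a median of -0.87. The overlapping gene was Ndrg2, which was highest in MycCaP-BMP4 replicate 1. It had 51.1 and 17.8 CPM in MycCaP-BMP4 TAMs, against 18.3 and 15.9 CPM in MycCaP TAMs. Cdkn1a, the gene of the cell cycle inhibitor p21, had 125 and 400 CPM in MycCaP-BMP4 TAMs, against 668 and 567 CPM in MycCaP TAMs. Gadd45a, a stress-response gene, had 13.7 and 16.2 CPM, against 33.5 and 23.4 CPM in MycCaP TAMs. Ndrg1, another stress gene, had 19.7 and 76.6 CPM, against 151 and 128 CPM in MycCaP TAMs. MycCaP-BMP4 replicates 1 and 2 held 20.2% and 64.7% of the MycCaP mean of Cdkn1a and 14.1% and 54.7% of that of Ndrg1, beside 19.5% and 74.2% for the pan-macrophage median, whose part was not tested. The list's median turned to 0.86 under the macrophage scaling, below the 1.62 of all genes. Of the MLX and MondoA targets, Txnip, an inhibitor of glucose uptake, had 121 and 149 CPM in MycCaP-BMP4 TAMs, against 200.0 and 208 CPM in MycCaP TAMs, and Arrdc4 was also lower, while Klf10 was higher. None of these genes passed the edgeR test over all genes.

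**Figure D5:**
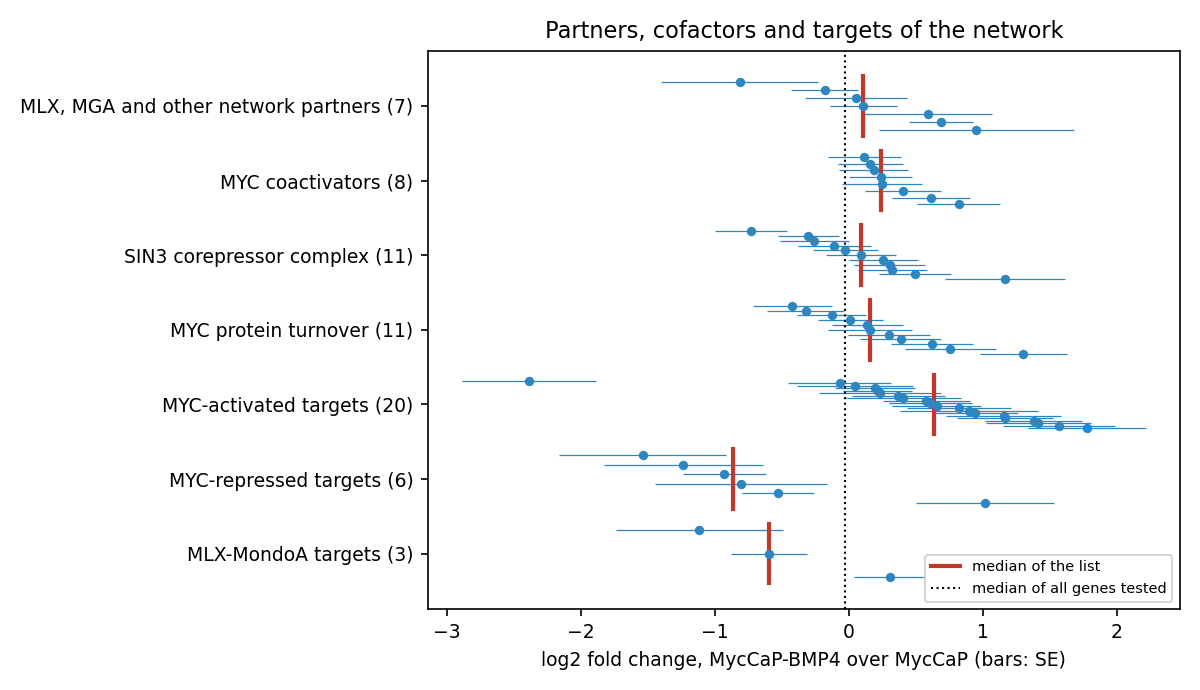
Log2 fold change, MycCaP-BMP4 over MycCaP, of each tested gene (blue points, SE bars) in 7 lists of network partners, cofactors and targets, with the number tested in brackets. Red bars are list medians and the dotted line is the median of all genes, -0.03. The MYC-activated list has its median at 0.63 and the MYC-repressed list at -0.87.

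The 5 genes whose pattern over the 4 libraries was most like that of Myc, by the Euclidean distance between centred log2 CPM profiles, were Aldh6a1, Pick1, Plppr2, Gpx8 and A4galt. Their distances ran from 0.0374 to 0.0904, and 314 genes lay within 0.5, so the pattern is one that many genes have. Aldh6a1, a mitochondrial enzyme gene of valine breakdown, had 407 and 163 CPM in MycCaP-BMP4 TAMs, against 61.2 and 88.6 CPM in MycCaP TAMs.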

How the data were processed

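Libraries were polyA-selected and strand-specific and were read in pairs, per the labels' protocols. The deposited values are whole-number counts per gene, which the authors made with HTSeq per the submitters' processing notes. STAR 2.6.0b, Bowtie2 2.2.3, RSEM and the build GRCm38 (mm10) are named there too. The sources used here give neither annotation release nor strand setting. Summary lines that name no gene (14.6% to 19.4% of counted reads) were left out.

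Symbols were matched for 37607 of 39179 identifiers. Coordinates and exonic lengths (union of exons) came from GENCODE M21. Counts were filtered with filterByExpr (minimum count 10), scaled with TMM and tested with edgeR 4.0.16's quasi-likelihood F test, two-sided, without covariates, on all 4 samples, with Benjamini-Hochberg adjustment over 14075 genes and a threshold of 0.05. The SE is the fold change over the root of the F statistic. List medians per library use log2 CPM with a prior count of 2, taken from the mean of the MycCaP log2 values. Values of single members per library are log2 of CPM over the MycCaP mean CPM, without a prior count. DESeq2 1.42.0 and limma 3.58.1 were alternatives. The fit was tested on simulated data. The simulation had less spread between replicates than these libraries and the same spread in both groups, so it does not show how the fit performs here.

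Whether samples came from separate mice is not stated, so the p-values reflect the spread among these 4 libraries alone, and that spread may be technical. The libraries of a group differed by more than sampling noise. The members, lists and tests were chosen with earlier results of these data known. Named genes are all members, the 4 genes with smallest p in each list at most and others a sentence needs, the sort markers and Bmp4, and the 5 genes most like Myc. A few genes under this rule are not reported here.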

Additional observations from a re-analysis of the deposited data

How the results depend on the processing

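No member passed the edgeR test in the reported fit. Members called were 1 (Myc) with libraries scaled on the macrophage genes, with no filter on low counts and with DESeq2's test, and 0 with DESeq2 size factors, library size alone, a filter of 1 CPM in 2 libraries and limma-voom. Leaving out 1 library gave 0 to 5 members, with Myc, Mycl, Mxd1, Mxd4 and Mxi1 called without MycCaP-BMP4 replicate 2 and Myc called without replicate 1. In these fits the lone library is assumed to vary like the MycCaP pair, so their calls are not taken as a result here. The fit without MycCaP-BMP4 replicate 2 called more of all genes than any other fit. Genes called over all were 0 in the reported fit (2680 at an unadjusted p under 0.05), 65 with library size alone, 1089 (1066 higher, 23 lower) with macrophage scaling, 1109 with no filter, 1385 with DESeq2's test, and 0 to 5753 when 1 library was left out. Signs turned for Max (1.30), Mxd1 (0.10), Mxd3 (1.26) and Mxi1 (0.42) under macrophage scaling, and for Mlx when 1 library was left out (-0.027 without MycCaP replicate 1, range -0.027 to 0.11). Under macrophage scaling the median of all genes was itself 1.62, and Max, Mxd1, Mxd3 and Mxi1 stayed below it. The cause of the turn of Mlx was not tested. Of 117 member values over 13 alternatives, 102 kept their direction and their side of the threshold.

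The replicate numbers are not said to pair samples, and deviations of same-numbered libraries correlated at r = -0.13 over 14075 genes. With the replicate block 2 genes and 0 members were called. The crossed pairing, chosen after seeing the data, called 689 genes and 1 member. Mycl and Mycn are limited by depth.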
